A study of Mus musculus with 13 samples.

Results

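The genes described here are 36 that act in mitosis and on the mitotic spindle, listed by name for their roles, with no threshold on their values in these arrays. The list was nevertheless drawn up with earlier results of these data known. Of them, 34 were measured and tested, among 15107 genes measured and 10575 tested on the array. Ccnb1 and Cenpf had no probe set annotated to them alone and were not measured here. The 34 measured genes were covered by 655 probe sets, between 5 and 47 for each gene, and 3 of them (Cdk1, Ska1 and Ska2) carried an older symbol in the annotation.

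RNA came from bone marrow cells sorted by flow cytometry, with 1 mouse on each of 13 Affymetrix Mouse Exon 1.0 ST arrays, whose probe sets each read part of a gene. Mice of genotype mCG-PR N17 express the fusion oncoprotein of acute promyelocytic leukaemia, PML-RARA, from the locus that the labels call Ctg, so its expression follows the cathepsin G gene, which is active mainly in promyelocytes. Controls were wild-type (WT) mice, described as littermates, and all mice were of the strain given as Bl/6 Taconic. The groups were WT KLS cells (4 mice, replicates 1 and 2 of 13 weeks and replicates 3 and 4 of 12 weeks), mCG-PR KLS cells of 6 weeks (3 mice) and of 13 weeks (2 mice), WT SLAM cells of 6 weeks (2 mice) and mCG-PR SLAM cells of 7 weeks (2 mice). KLS stands for marrow cells with Kit and Sca1 but without lineage markers, which hold stem cells and multipotent progenitors, and SLAM for a sort by SLAM family receptors that enriches for long-term stem cells. The sort gates were not stated in the labels.

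Mitosis separates the copied chromosomes into daughter cells. Cyclin A and cyclin B drive the kinase Cdk1 into mitosis. The transcription factor Foxm1 switches the mitotic genes on late in the cell cycle, and DREAM/MuvB factors also regulate them. Kinetochores tie chromosomes to spindle microtubules, and the spindle checkpoint holds the cell until every kinetochore is attached. In bone marrow most long-term stem cells are quiescent and rarely divide, while multipotent progenitors cycle often, and mitotic transcripts are used there as a readout of dividing cells. In RNA from a sorted pool of cells, fewer dividing cells and less mitotic RNA in each dividing cell cannot be told apart.

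The promoters of these genes are known for a pair of short elements, the CHR element bound by DREAM/MuvB, searched here as TTTGAA, and the CCAAT box bound by NF-Y. Both strands of the stretch from 250 bases before to 50 bases after each start site were searched, with RefSeq promoters of build GRCm38.p6. Promoters were on hand for 29 of the 36 genes; those of Ccna2, Ska1, Foxm1, Incenp, Tpx2, Aurkb and Kif20a were not used here. TTTGAA was found in 20 of the 29 (69%), against 20.2% of 27025 genes with a promoter in the same table, 42% of 112 other genes of the mitotic pathway and 18.8% of 32 DNA replication genes. CCAAT was found in 21 of the 29 (72.4%) against 41.1% of all genes, and both were found in 17 (58.6%) against 7.97%. A variant of the element, TTTAAA, was found in 8 (27.6%) against 14.9%. Kif18a, Mad2l1, Nuf2 and Nusap1 had none of these 3 motifs. A match is a description of the letters and not a binding site. The 100 bases before the start site are shown for 6 genes that hold both motifs there, and for Ska2. Ska2 is a kinetochore gene that holds CCAAT without TTTGAA and whose KLS values, given further on, differ from the rest. Capitals mark TTTGAA and CCAAT on either strand (TTCAAA and ATTGG on the other), and each sequence runs 5′ to 3′ on its gene's strand.
Cdk1, chr10:69352913-69353012, minus strand: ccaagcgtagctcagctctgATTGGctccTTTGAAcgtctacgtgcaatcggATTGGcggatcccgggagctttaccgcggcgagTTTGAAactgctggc
Cdc20, chr4:118437344-118437443, minus strand: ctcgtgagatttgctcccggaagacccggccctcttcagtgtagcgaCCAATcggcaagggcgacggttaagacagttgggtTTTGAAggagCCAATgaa
Kif11, chr19:37376282-37376381, plus strand: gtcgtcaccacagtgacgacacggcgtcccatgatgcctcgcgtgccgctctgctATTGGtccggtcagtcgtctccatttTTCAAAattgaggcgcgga
Prc1, chr7:80294376-80294475, plus strand: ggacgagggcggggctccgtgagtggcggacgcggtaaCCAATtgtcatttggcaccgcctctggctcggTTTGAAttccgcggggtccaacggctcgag
Top2a, chr11:99024190-99024289, minus strand: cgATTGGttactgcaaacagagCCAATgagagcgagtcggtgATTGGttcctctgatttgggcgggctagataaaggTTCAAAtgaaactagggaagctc
Espl1, chr15:102296193-102296292, plus strand: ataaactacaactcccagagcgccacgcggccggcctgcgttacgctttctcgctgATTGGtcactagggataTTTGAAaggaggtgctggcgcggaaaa
Ska2, chr11:87109161-87109260, plus strand: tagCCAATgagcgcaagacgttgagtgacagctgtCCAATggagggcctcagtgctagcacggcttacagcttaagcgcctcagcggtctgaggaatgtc

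Values are log2 intensities, the median over a gene's probe sets, and are compared only within a gene because probe sets differ in brightness. Array medians lay between 98.6 and 115.3 intensity units, and precision is limited by how few arrays each group has. Detection above background was not assessed here, so a difference that reaches low values can understate the change. The sorted populations matched their labels on Kit, Ly6a, Cd48 and Slamf1. Other markers of these cells are given further on. Kit and Ly6a (Sca1) had group means of 9.57 to 10.40 and 8.85 to 9.49 in all 5 groups, Cd48 was at 8.83 to 9.37 in KLS and at 5.13 and 4.25 in WT and mCG-PR SLAM, and Slamf1 was at 5.46 to 5.98 in KLS and at 7.58 and 6.42 in SLAM. WT SLAM replicate 2 stood apart from the other arrays on the second principal component (12.9% of the variance, score 46.78). The Y-linked genes averaged 4.28 and 4.23 on replicates 1 and 2 of mCG-PR SLAM. They averaged 4.53 on replicate 3 of the 6-week mCG-PR KLS mice and 7.67 to 8.48 elsewhere, so low Y-linked expression coincided with genotype among the SLAM arrays.

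The mean over the 34 genes was lowest in SLAM and highest in mCG-PR KLS. It was 7.49, 7.12, 7.97 and 7.56 on WT KLS replicates 1 to 4, with a group mean of 7.54 ± 0.35 (SD, n = 4). It was 7.84, 8.31 and 8.16 in mCG-PR KLS of 6 weeks (8.10 ± 0.24, SD, n = 3) and 7.95 and 8.08 in mCG-PR KLS of 13 weeks (8.02 ± 0.09, SD, n = 2). WT KLS replicate 3 therefore lay above 2 of the 5 mCG-PR KLS arrays, and the groups overlapped through that array. The SLAM means were 6.41 and 6.91 in WT (6.66 ± 0.35, SD, n = 2) and 6.00 and 6.14 in mCG-PR (6.07 ± 0.10, SD, n = 2), and all 4 lay below every KLS array.

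**Figure D1:**
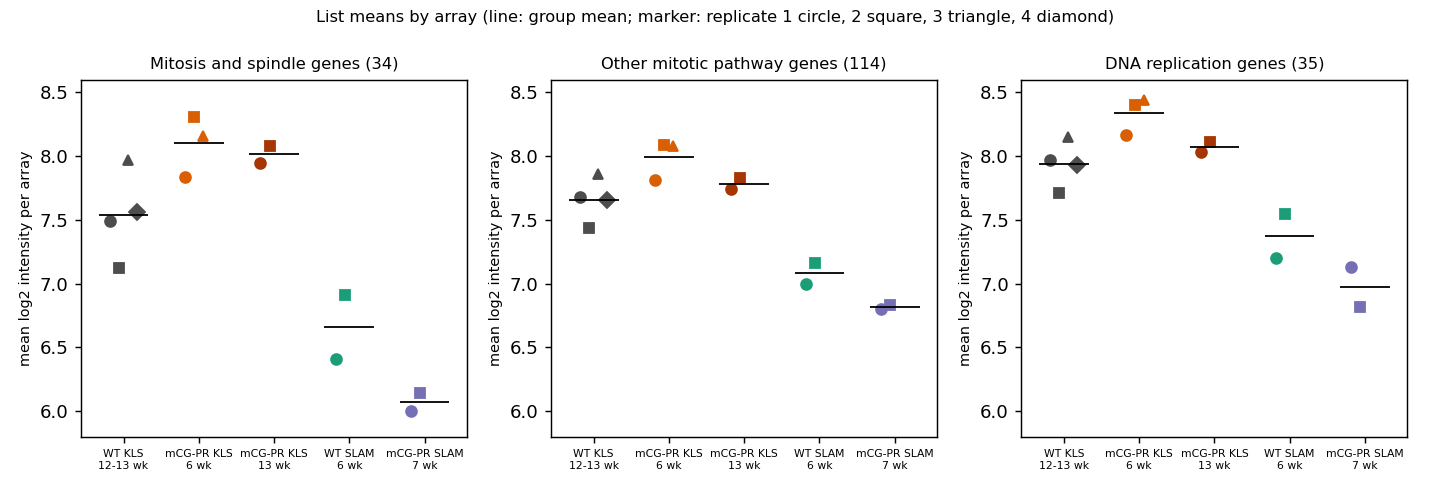
Mean log2 intensity per array (vertical axis) over the 34 mitosis and spindle genes, 114 other mitotic pathway genes and 35 DNA replication genes, by group (horizontal axis). Each marker is 1 array, its shape gives the replicate and the line is the group mean. All 4 SLAM arrays lie below all 9 KLS arrays in the left panel, and WT KLS spans 7.12 to 7.97.

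Gene by gene, all 4 SLAM arrays lay below all 9 KLS arrays for 15 of the 34 genes (44.1%), against 9.53% of all genes tested. They included the checkpoint genes Bub1, Mad2l1 and Ttk, the kinetochore genes Ndc80, Nuf2 and Cenpe, and the spindle motor Kif11. Both mCG-PR SLAM arrays lay below all KLS arrays for 27 genes (79.4%) against 21.2%, and both WT SLAM arrays did so for 17 (50%) against 17.8%.

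**Figure D2:**
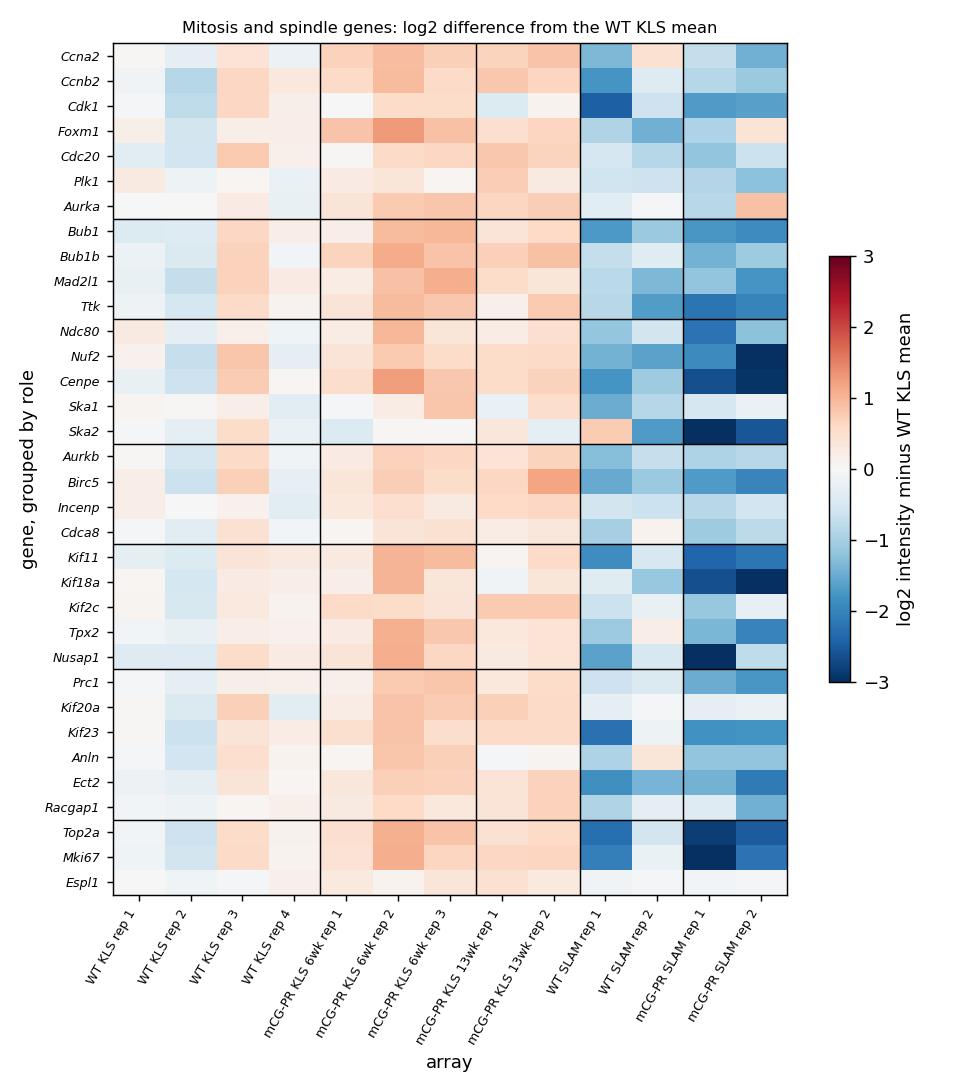
Log2 intensity minus the WT KLS mean of the same gene, for 34 genes (rows, grouped by role) on 13 arrays (columns). Blue is below and red above the WT KLS mean, and the colour scale saturates at 3 in each direction. The mCG-PR SLAM columns hold the darkest blue, while Espl1, Kif20a and Ska1 stay pale there.

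The first comparison set mCG-PR KLS cells against WT KLS cells, with both ages pooled (n = 5 against n = 4). The WT KLS mice were 12 or 13 weeks old and most of the mCG-PR mice 6 weeks, so age and genotype are partly mixed in it. The mitotic genes had higher values in mCG-PR cells with few exceptions, but none passed the adjusted threshold. The difference was positive for 33 of the 34 genes, while 68% of all genes tested had a positive difference. The median difference was 0.57 on the log2 scale against 0.09 over all genes. With limma and Benjamini-Hochberg adjustment over 10575 genes, 0 of the 34 were called, as were 0% of all genes, and the lowest adjusted p was 0.356 for Bub1b. That fit gave SLAM and KLS arrays equal weight, so its standard errors and p-values also hold the spread among SLAM mice. At an unadjusted p below 0.05, 22 of 34 genes (64.7%) were higher against 6.08% of all genes, and 0 were lower against 1.12%. The mCG-PR arrays lay above all WT arrays for 8 genes (23.5%) against 3.55% of all genes: Ccna2, Foxm1, Aurka, Incenp, Kif2c, Tpx2, Kif23 and Racgap1. Of the 655 probe sets, 607 (92.7%) had a positive difference, including all 47 of Cenpe and all 25 of Bub1b.

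Among the drivers of mitotic entry and exit, Foxm1, the transcription factor that switches on mitotic genes, had the smallest p. Foxm1 stood at 6.82, 6.10, 6.85 and 6.85 on WT KLS replicates 1 to 4, at 7.52, 7.93 and 7.54 in mCG-PR KLS of 6 weeks and at 7.16 and 7.31 at 13 weeks. All 5 mCG-PR arrays were above all 4 WT arrays. The difference was 0.84 ± 0.26 (limma adjusted p = 0.479). The other 6 measured genes of this role were Ccna2 (cyclin A, 0.77 ± 0.28), Ccnb2 (a B-type cyclin, 0.72 ± 0.29), the kinase gene Aurka (spindle pole maturation, 0.67 ± 0.25), Cdc20 (the activator of the anaphase-promoting complex, 0.54 ± 0.25), the kinase gene Plk1 (0.34 ± 0.16) and Cdk1 itself (0.16 ± 0.34). Cdk1 was the smallest of them, with WT KLS replicate 3 at 8.84 above all 5 mCG-PR arrays.

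All 4 spindle checkpoint genes had an unadjusted p below 0.05. Bub1b, which encodes the checkpoint protein BubR1, stood at 7.22, 6.94, 8.08 and 7.30 in WT KLS, at 8.05, 8.49 and 8.24 in mCG-PR KLS of 6 weeks and at 8.11 and 8.27 at 13 weeks. WT KLS replicate 3 was the single WT array above an mCG-PR array. The difference was 0.85 ± 0.20 (limma adjusted p = 0.356), and without WT KLS replicate 3 it was 1.08 with adjusted p = 0.0316, where 21 alternatives gave 0.0316 to 1.00. The kinase genes Bub1 (0.63 ± 0.24) and Ttk (0.62 ± 0.24) and Mad2l1, whose protein inhibits Cdc20 (0.62 ± 0.27), had differences close to one another.

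At the kinetochore the values were less uniform. Cenpe, a kinetochore motor that carries chromosomes to the spindle equator, stood at 7.30, 6.92, 8.30 and 7.60 in WT KLS, at 8.06, 8.78 and 8.34 in mCG-PR KLS of 6 weeks and at 8.08 and 8.21 at 13 weeks. WT KLS replicate 3 exceeded 3 of the 5 mCG-PR arrays. The difference was 0.76 ± 0.25 (limma adjusted p = 0.491). The Ndc80 complex, which grips the microtubule, is represented by Ndc80 (0.46 ± 0.23) and Nuf2 (0.57 ± 0.27). Of the SKA complex, which stabilises that grip, Ska1 had a difference of 0.26 ± 0.22 and Ska2 of -0.05 ± 0.38. Ska2 was the one gene of the 34 without a positive difference, and it was chosen for a full account after its values were seen. Ska2 stood at 8.02, 7.80, 8.63 and 7.87 in WT KLS, at 7.67, 8.11 and 8.12 in mCG-PR KLS of 6 weeks and at 8.42 and 7.79 at 13 weeks, with the groups fully mixed.

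The chromosomal passenger complex corrects faulty attachments and later helps to divide the cell. Incenp, its scaffold, stood at 7.82, 7.63, 7.77 and 7.31 in WT KLS, at 7.95, 8.14 and 7.91 in mCG-PR KLS of 6 weeks and at 8.24 and 8.26 at 13 weeks. The groups did not overlap, and the 13-week arrays were the highest. The difference was 0.47 ± 0.15 (limma adjusted p = 0.491). The subunit gene Birc5, which encodes survivin, had a difference of 0.69 ± 0.24, the kinase gene Aurkb of 0.53 ± 0.20 and Cdca8, which encodes borealin, of 0.29 ± 0.21.

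Among spindle motors and microtubule proteins, Kif2c, a kinesin that shortens microtubules, stood at 6.17, 5.62, 6.39 and 6.21 in WT KLS, at 6.66, 6.65 and 6.48 in mCG-PR KLS of 6 weeks and at 6.89 and 6.89 at 13 weeks. The groups did not overlap. The difference was 0.61 ± 0.20 (limma adjusted p = 0.491). Differences were 0.57 ± 0.28 for Kif11, the motor that pushes the spindle poles apart, 0.57 ± 0.25 for the assembly factor Tpx2, 0.56 ± 0.41 for the bundling protein gene Nusap1 and 0.37 ± 0.24 for Kif18a, a kinesin that limits microtubule length.

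The midzone and cytokinesis genes act when the cell divides. Ect2, the exchange factor that activates RhoA at the division site, stood at 7.19, 7.11, 7.76 and 7.43 in WT KLS, at 7.71, 8.09 and 8.06 in mCG-PR KLS of 6 weeks and at 7.79 and 8.07 at 13 weeks. Replicate 1 of the 6-week mice lay just under WT KLS replicate 3, and the other 4 mCG-PR arrays were above all WT arrays. The difference was 0.57 ± 0.19 (limma adjusted p = 0.491). The kinesin genes Kif20a (0.62 ± 0.21) and Kif23 (0.61 ± 0.32), the bundling factor gene Prc1 (0.52 ± 0.17) and Racgap1, the partner of Kif23 (0.46 ± 0.20), had differences near that of Ect2. The cortical scaffold gene Anln had the smallest difference of this role, 0.33 ± 0.28.

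Of the 3 genes of chromosome structure and separation, Espl1, which encodes separase, had the smallest p and the smallest difference. Espl1 stood at 6.45, 6.31, 6.41 and 6.58 in WT KLS, at 6.73, 6.55 and 6.81 in mCG-PR KLS of 6 weeks and at 6.90 and 6.74 at 13 weeks. One mCG-PR array, replicate 2 of 6 weeks, lay below WT KLS replicate 4. The difference was 0.31 ± 0.12 (limma adjusted p = 0.612). Mki67, the proliferation marker that coats mitotic chromosomes, had a difference of 0.69 ± 0.32 and Top2a, which untangles DNA, of 0.68 ± 0.30.

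**Figure D3:**
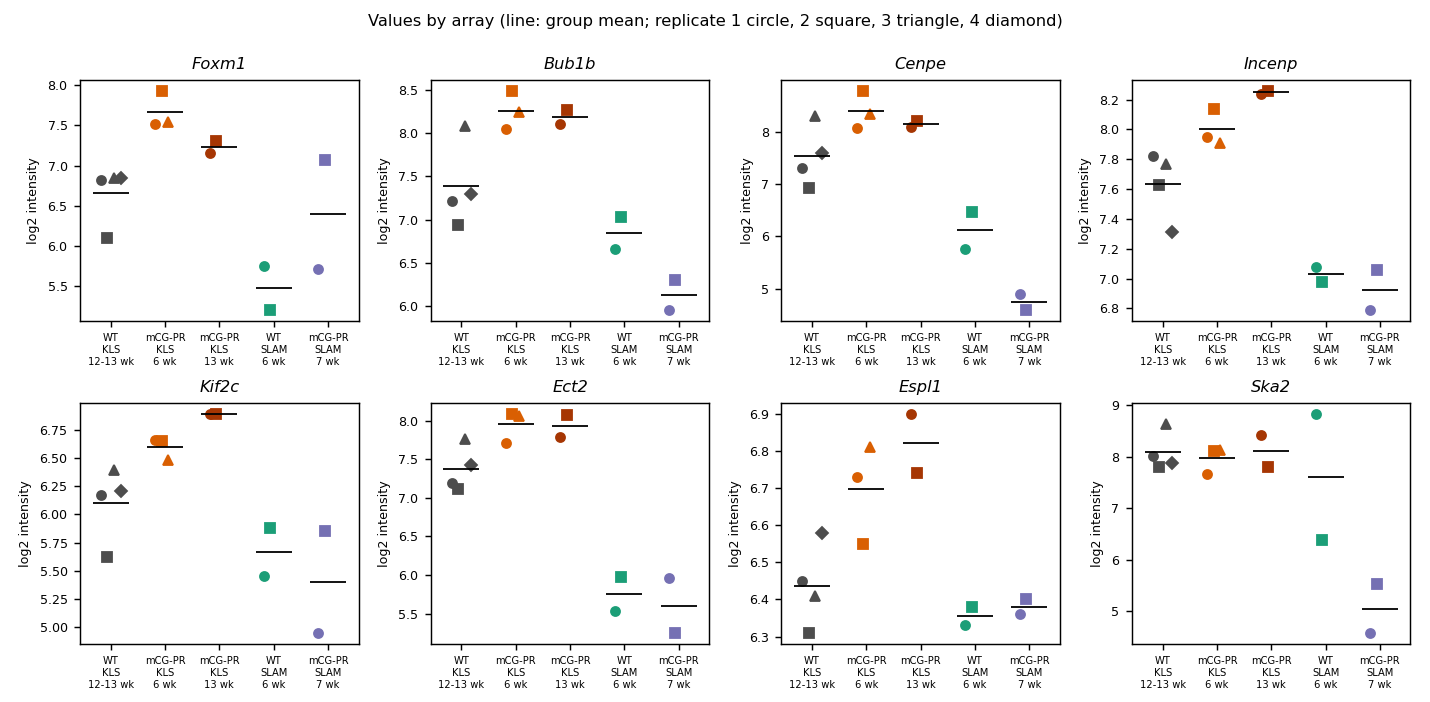
Log2 intensity (vertical axis, a separate scale in each panel) of the gene with the smallest p in each role, and of Ska2, by group (horizontal axis). Each marker is 1 array, its shape gives the replicate and the line is the group mean. Foxm1, Incenp and Kif2c show all 5 mCG-PR KLS arrays above the 4 WT KLS arrays, and Ska2 does not.

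The genes varied together from mouse to mouse within the KLS groups, which bears on how their counts can be read. WT KLS replicate 2 was the lowest of the 9 KLS arrays for 27 of the 34 genes, and mCG-PR KLS 6 weeks replicate 2 the highest for 18. From the group mean, WT KLS replicate 2 deviated by -0.42 on average, with 1 gene above that mean, and WT KLS replicate 3 by 0.44, with 33 genes above it. Across the 9 KLS arrays, after group means were removed, the median correlation of 561 gene pairs was 0.70, against 0.08 for pairs of all genes, as a description of arrays that share their depth and labelling. Top2a (0.99), Cenpe (0.97), Aurkb (0.97) and Anln (0.97) followed the mean of the other genes most closely. Espl1 (-0.01), Plk1 (0.14), Incenp (0.26) and Ska1 (0.30) followed it least. One array with many or few mitotic transcripts thus moves most of the 34 genes at once, and they do not count as separate observations.

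The age of the WT mice moved with these levels. The 12-week WT KLS arrays lay above the 13-week arrays for 21 of the 34 genes (61.8%), against 19.7% of all genes, and below them for 0, against 16.8%. With the 12-week controls alone the median difference of mCG-PR KLS was 0.33, and with the 13-week controls alone, an alternative chosen after seeing the data, it was 0.81. Litter, sort and array run were not tested, and the part of age in the result was not tested.

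Markers of other cell types also differed between these groups. The 7 tested of 8 monocyte and dendritic cell markers had a mean level of 6.74 to 6.98 on the WT KLS arrays, 7.53 to 8.11 in mCG-PR KLS of 6 weeks and 7.44 to 7.49 at 13 weeks. Their median difference was 1.05, with 5 of 7 higher at an unadjusted p below 0.05 against 6.08% of all genes. The 4 tested of 6 mast cell and basophil markers had a mean level of 6.12 to 6.81 in WT KLS, 6.77 to 8.50 at 6 weeks and 7.25 to 7.27 at 13 weeks. Of them, 3 of 4 were higher at the same unadjusted threshold. Among defining markers, Csf1r had group means of 6.42, 7.24 and 7.12 and Cpa3 of 6.46, 7.91 and 7.31 in the same order. Cd68, a monocyte and dendritic cell marker, went the other way, at 8.55, 8.44 and 8.41. The 10 tested of 11 marker genes of the sorted cells themselves had a median difference of -0.36, with 8 negative and 2 positive. At an unadjusted p below 0.05, 3 were lower against 1.12% of all genes, and 1 was higher against 6.08%. Hlf had group means of 10.87, 10.39 and 9.83 and Flt3 of 10.23, 10.64 and 10.57 in that order. Array intensities have no true zero. The part of other cell types, or of these sorted-cell markers, in the mitotic values was not tested.

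Split by age, the comparisons with WT KLS share the WT arrays and so are given side by side. At 6 weeks 33 of 34 differences were positive with a median of 0.58 (0.11 over all genes), and at 13 weeks 33 of 34 with a median of 0.53 (0.05 over all genes). Of all genes tested, 71.7% had a positive difference at 6 weeks and 57.7% at 13 weeks. No gene was called by limma at either age, against 0.00946% and 0% of all genes. Counts at an unadjusted p below 0.05 were 17 higher (50%) against 5.83% of all genes at 6 weeks, and 9 higher (26.5%) against 4.54% at 13 weeks. Arrays did not overlap for 8 genes (23.5%) against 9.46%, and for 15 (44.1%) against 14.8%. Foxm1 had differences of 1.01 ± 0.29 at 6 weeks and 0.58 ± 0.33 at 13 weeks, Birc5 of 0.55 ± 0.28 and 0.90 ± 0.31, and Anln of 0.54 ± 0.30 and 0.02 ± 0.35. The 13-week mCG-PR mice have controls of their own age in WT KLS replicates 1 and 2, and against those alone the median was 0.77, with 34 of 34 positive and 0 called. Those controls hold WT KLS replicate 2, the lowest KLS array for 27 genes, and against the 12-week controls alone the 13-week median was 0.27, with 27 of 34 positive.

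The direct comparison of mCG-PR KLS cells of 13 weeks with those of 6 weeks gave no call for these genes. No gene was called by limma (0% of all genes), and 0 had an unadjusted p below 0.05, against 1.72% higher and 4.61% lower of all genes. The median difference was -0.06, with 12 positive and 22 negative, where 39.8% of all genes tested had a positive difference. After quantile normalisation the median was 0.09 with 20 positive, so its sign depended on the scaling. Over all genes the median was -0.07. Differences ran from -0.52 ± 0.36 for Anln and -0.51 ± 0.46 for Cdk1 to 0.33 ± 0.34 for Cdc20 and 0.35 ± 0.33 for Birc5. DNA replication genes had a median of -0.26 with 31 of 35 negative, and the other mitotic pathway genes a median of -0.21 with 91 of 114 negative.

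In comparisons with SLAM cells, the SLAM arrays were fitted with less weight than the KLS arrays (0.45 against 1.43), since replicates differed more there. The median SD of these genes within groups was 0.53 in SLAM and 0.37 in KLS, against 0.33 and 0.22 over all genes. In WT mice, SLAM cells had lower values than KLS cells for all 34 genes, with a median difference of -0.92 against -0.05 over all genes. Of all genes tested, 45.1% had a positive difference. Single probe sets were less uniform, with 519 of 655 (79.2%) lower. Cdc20 (6 of 10) and Ska2 (4 of 7) had more probe sets higher than lower. Ect2 fell in WT SLAM cells and was the single gene called by limma, 2.94% of the 34 against 2.77% of all genes called lower, a share near the background. At an unadjusted p below 0.05, 19 of 34 (55.9%) were lower against 13.9%. The 2 SLAM arrays lay below the 4 WT KLS arrays for 17 (50%) against 22.3%. The WT SLAM mice were 6 weeks old and the WT KLS mice 12 or 13 weeks, so age and sorted population cannot be told apart in WT. The 4 tested of 9 T and NK cell markers had a median difference of -1.07, with 1 called lower and mean levels of 6.59 to 7.57 in WT KLS and 5.86 to 6.03 in WT SLAM. Among them Nkg7 had group means of 8.77 and 6.57 and Cd3e of 6.59 and 6.63. Their part in the mitotic values was not tested.

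Ect2 stood at 5.54 and 5.97 in WT SLAM, below the lowest WT KLS array at 7.11. The difference was -1.62 ± 0.32, 3.07-fold lower (limma adjusted p = 0.0154, and 0.00182 to 0.143 over 17 alternatives). It was called in 15 of those 17, and not without WT SLAM replicate 1 or without WT SLAM replicate 2. Cdk1, the mitotic kinase, was at 5.77 and 7.59 in WT SLAM (-1.54 ± 0.52, limma adjusted p = 0.123), and Nuf2 of the Ndc80 complex at 6.01 and 5.81 (-1.51 ± 0.48, adjusted p = 0.102). Bub1 and Cenpe each had a difference of -1.42. The smallest differences belonged to Espl1 (-0.08 ± 0.23), Kif20a (-0.17 ± 0.41) and Aurka (-0.19 ± 0.35).

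The WT SLAM replicates disagreed on many of these genes. Replicate 2, the array that stood apart on the second principal component, was higher than replicate 1 for Top2a (8.81 against 7.10), Mki67 (10.48 against 8.63) and Kif23 (8.14 against 6.05). It was lower for Ska2 (6.39 against 8.83) and Ttk (5.58 against 6.43). Replicate 2 also had higher mean levels of neutrophil and promyelocyte markers (10.14 against 8.45), B cell markers (7.43 against 6.38) and mast cell and basophil markers (6.98 against 5.65). Stromal and endothelial markers went the other way (7.10 against 7.26). The part of such cells in the mitotic values was not tested. Without WT SLAM replicate 1 the median difference was -0.55 and 0 genes were called. Without WT KLS replicate 2, 7 were called, with the 12-week WT KLS controls alone 4, and without array weights 13. The count over all genes also rose without array weights, as given further on.

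In mCG-PR mice the gap between SLAM cells of 7 weeks and KLS cells of 6 weeks was wide. All 34 genes had a negative difference, while 36.7% of all genes tested had a positive one. Of the 34 genes, 29 were called lower by limma (85.3%), against 12.3% of all genes, and the median difference was -2.17 against -0.19. The SLAM arrays lay below all KLS arrays of 6 weeks for 33 genes (97.1%) against 35.1%. Those not called were Cdc20 (-1.33 ± 0.47, limma adjusted p = 0.0741), Kif20a (-0.84 ± 0.42), Ska1 (-0.68 ± 0.40), Aurka (-0.65 ± 0.36) and Espl1 (-0.32 ± 0.23). With quantile normalisation 20 genes were called, without mCG-PR SLAM replicate 1 there were 14, and without mCG-PR SLAM replicate 2 there were 19. Under each of these settings the count over all genes fell as well, as given further on. Y-linked genes averaged 4.28 and 4.23 on the mCG-PR SLAM arrays. They averaged 8.46, 8.38 and 4.53 on replicates 1 to 3 of mCG-PR KLS of 6 weeks. The part of this difference was not tested. Age (7 against 6 weeks) and sorted population cannot be told apart here.

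Markers of some other cell types were lower in the same comparison, where 12.3% of all genes were called lower. Of the 7 tested monocyte and dendritic cell markers, all 7 had a negative difference and 5 fell, with a median of -1.86 and mean levels of 7.53 to 8.11 in mCG-PR KLS of 6 weeks and 6.12 to 6.15 in mCG-PR SLAM. The 4 tested of 9 T and NK cell markers had a median of -1.85, with 2 called lower and mean levels of 7.40 to 7.78 and 6.04 to 6.10. The 4 mast cell and basophil markers had a median of -1.33, with 1 called lower and mean levels of 6.77 to 8.50 and 5.94 to 6.15. The 10 neutrophil and promyelocyte markers had a median of -0.69, with 2 called lower. The part of such cells in the mitotic values was not tested.

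The calls are given here by role, where 12.3% of all genes were called lower. All 4 checkpoint genes were called lower, with differences from -2.13 for Bub1b to -2.81 for Ttk. All 4 passenger complex genes were called, from -1.08 for Incenp to -2.38 for Birc5. All 5 motor and microtubule genes were called, among them Kif2c with a difference of -1.20. Of the kinetochore genes 4 of 5 were called, of the midzone genes 5 of 6, of the mitotic drivers 5 of 7 and of the chromosome genes 2 of 3. The genes not called had negative differences too.

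Some genes reached low values in mCG-PR SLAM. Cenpe stood at 4.90 and 4.60 in mCG-PR SLAM against 8.06, 8.78 and 8.34 in mCG-PR KLS of 6 weeks. The difference was -3.65 ± 0.47 (limma adjusted p = 0.000512). Top2a stood at 6.54 and 6.87 in mCG-PR SLAM against 9.83, 10.42 and 10.21 in KLS. It was 10.9-fold lower (-3.44 ± 0.47, limma adjusted p = 0.000679). Kif18a, the kinesin that limits microtubule length, stood at 4.02 and 3.49 against 6.86, 7.68 and 7.02. The difference was -3.43 ± 0.41 (limma adjusted p = 0.000313). Ska2, without a positive difference in KLS, stood at 4.58 and 5.52 against 7.67, 8.11 and 8.12 (-2.92 ± 0.53, limma adjusted p = 0.0031). The mCG-PR SLAM values of Cenpe and Kif18a, and those of Ska2, Nusap1 and Nuf2 on 1 array each, were close to or below the 4.23 to 4.53 read for Y-linked genes on the arrays with little Y-linked signal. No fold is given for these genes, and their differences are not ranked.

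The remaining genes with a full account were as follows. Bub1b stood at 5.96 and 6.31 in mCG-PR SLAM, both below the lowest KLS array of any group (6.94). Incenp stood at 6.79 and 7.06 (-1.08 ± 0.26, limma adjusted p = 0.0152), and Kif2c at 4.95 and 5.85 (-1.20 ± 0.33, limma adjusted p = 0.0264). These replicates were further apart for Kif2c than for Incenp. Foxm1 was called by a narrow margin (-1.27 ± 0.39, limma adjusted p = 0.0448), with its replicates at 5.72 and 7.07, and it was called under 6 of 15 alternatives (adjusted p 0.0197 to 0.583). Aurka, which was not called, also had replicates far apart, at 6.41 and 8.10, with replicate 2 above every KLS array. Nusap1 stood at 4.53 and 7.11 and was called (-2.75 ± 0.57, limma adjusted p = 0.00615). Over 15 alternatives its difference ran from -4.04 to -1.46 and its adjusted p from 0.00421 to 0.201, the last without mCG-PR SLAM replicate 1. Without that array the calls of Bub1b, Incenp, Kif2c, Foxm1 and Ska2 were lost too, and without replicate 2 that of Incenp. Espl1 stood at 6.36 and 6.40 in mCG-PR SLAM and at 6.33 and 6.38 in WT SLAM, within 0.1 of each other on all 4 arrays.

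**Figure D4:**
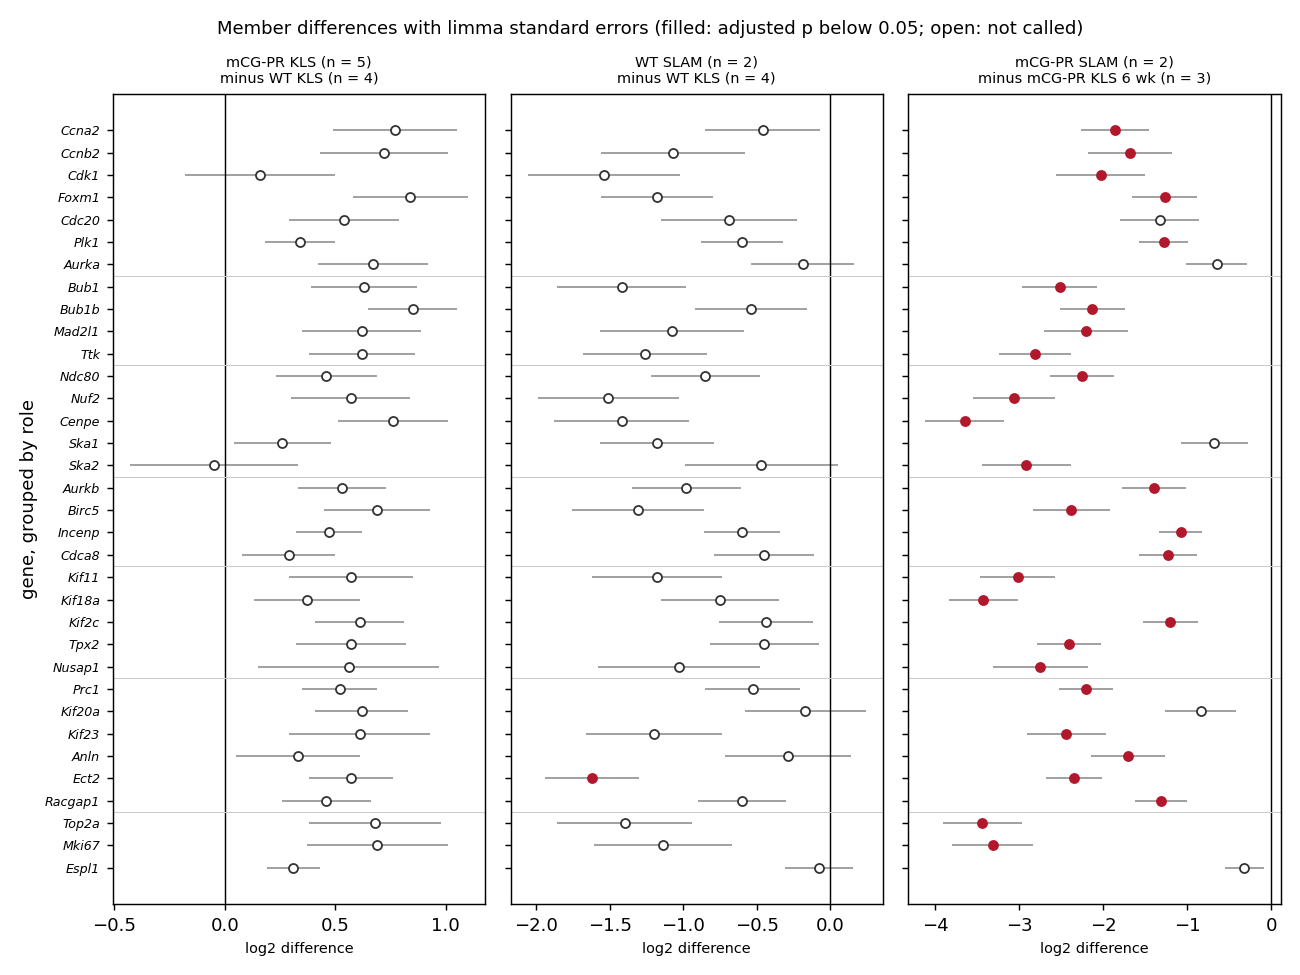
Log2 difference (horizontal axis) of each of the 34 genes (vertical axis, grouped by role) in mCG-PR against WT KLS, WT SLAM against WT KLS and mCG-PR SLAM against mCG-PR KLS of 6 weeks. Points are limma estimates, bars are 1 standard error, and filled points passed an adjusted p of 0.05 (0, 1 and 29 genes). The horizontal scales differ between panels.

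Set against each other, the SLAM cells of the 2 genotypes gave no call among these genes. No gene of the 34 was called by limma, against 0.0284% of all genes, and 28 of 34 differences were negative with a median of -0.50 against -0.02 over all genes. Of all genes tested, 47.7% had a positive difference. Probe sets agreed less well here, with 419 of 655 (64%) lower. Ndc80 (11 of 19), Incenp (13 of 21) and Kif2c (12 of 23) had more probe sets higher than lower, although their gene values were lower. At an unadjusted p below 0.05, 6 genes (17.6%) were lower in mCG-PR against 4.67%, and 0 were higher against 2.62%. Ska2 (-2.56 ± 0.68, limma adjusted p = 0.322) and Kif18a (-2.15 ± 0.53, adjusted p = 0.297) had unadjusted p-values below 0.05, and the other 4 were Mki67 (-1.46), Cenpe (-1.37), Tpx2 (-1.25) and Prc1 (-1.09). Ska2 ran from -3.79 without WT SLAM replicate 2 to -1.34 without WT SLAM replicate 1, and Mki67 from -0.53 to -2.38. Arrays did not overlap for 16 genes lower in mCG-PR (47.1%) against 18.8%, and for Ska1, higher in mCG-PR (2.94%), against 16.4%. Foxm1 (0.92 ± 0.50) and Ska1 (0.82 ± 0.52) had the largest positive differences. Without WT SLAM replicate 2 the median was -0.28, and without replicate 1 it was -0.80. Without array weights 3 of the 34 genes were called, and 270 of all genes against 3 with weights.

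In the same SLAM arrays, the 10 neutrophil and promyelocyte markers had mean levels of 8.45 and 10.14 on WT replicates 1 and 2 and 7.41 to 8.08 in mCG-PR. Their median difference was -1.83, with 7 of 10 lower at an unadjusted p below 0.05 against 4.67% of all genes. Mpo had group means of 8.42 and 6.37. Y-linked expression also separated these groups, as given above. The part of these markers in the mitotic values was not tested. Age (6 against 7 weeks), Y-linked expression and genotype cannot be told apart here.

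The difference between the genotypes in the gap from KLS to SLAM was tested as an interaction. No gene of the 34 was called by limma, against 0.0189% of all genes. The interaction was negative, a wider gap in mCG-PR, for 33 of 34 genes, while it was positive for 38.2% of all genes tested. The median was -1.11 against -0.13 over all genes, and 15 genes (44.1%) had an unadjusted p below 0.05 against 6.7%. Mki67, at higher levels throughout, had an interaction of -2.19 ± 0.68. Kif18a (-2.68 ± 0.58, limma adjusted p = 0.214), Ska2 (-2.45 ± 0.74) and Cenpe (-2.23 ± 0.66) rest on the low mCG-PR SLAM values given above and are not ranked. Ska1 was the exception (0.49 ± 0.56). The interaction contains the KLS difference, so it is not separate from the first comparison. It also contains the age gap of the WT arrays, 6-week SLAM against 12- and 13-week KLS, while the mCG-PR arrays were of 7 and 6 weeks, so age and genotype cannot be told apart in it. Y-linked expression coincided with genotype among its SLAM arrays, and the 2 cannot be told apart there either. Monocyte and dendritic cell markers had a median interaction of -1.70, with 7 of 7 negative. Neutrophil and promyelocyte markers had a median of -1.59, with 9 of 10 negative. In each of these 2 lists 4 markers were lower at an unadjusted p below 0.05, against 6.7% of all genes. Their part in the mitotic values was not tested. With the 12-week WT KLS controls alone the median of the 34 genes was -0.79. Without array weights 3 of the 34 genes were called, and the count over all genes rose as well, as given further on.

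Other genes of the mitotic pathway were described by lists of names grouped by role, 132 genes of which 114 were tested. In KLS cells of both ages, 98 of the 114 had a positive difference, against 68% of all genes, and 0 were called by limma. At an unadjusted p below 0.05, 26 were higher, against 6.08% of all genes, and 0 were lower, against 1.12%. Their median was 0.22, between that of all genes (0.09) and that of the 34 (0.57). Kinesin, spindle and centrosome genes had a median of 0.37 over 31, other centromere and kinetochore genes of 0.28 over 29, condensin and cohesin genes of 0.17 over 17, genes of the anaphase-promoting complex of 0.12 over 17 and entry kinase and DREAM/MuvB genes of 0.10 over 20. Examples are Kif22, a chromosome-arm kinesin (0.66 ± 0.16, limma adjusted p = 0.356), Fbxo5, the inhibitor of the anaphase-promoting complex also called Emi1 (0.90 ± 0.31), and Ncaph, a condensin subunit (0.68 ± 0.22). The 35 tested DNA replication genes had a median of 0.28.

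Between SLAM and KLS, members of these lists fell as well. In WT mice 15 of 114 fell by limma (2.77% of all genes), among them Cenpk of the inner kinetochore (-2.25 ± 0.39, adjusted p = 0.00758), the midbody kinesin gene Kif20b (-2.38 ± 0.43, adjusted p = 0.00931), the condensin gene Ncapg2 (-1.91 ± 0.35, adjusted p = 0.011) and Wee1, which encodes the kinase that restrains Cdk1 (-1.23 ± 0.25, adjusted p = 0.0188). In mCG-PR mice 59 of 114 fell (12.3% of all genes). They were 21 of 31 kinesin, spindle and centrosome genes, 14 of 29 centromere and kinetochore genes, 14 of 17 condensin and cohesin genes, 6 of 20 entry kinase and DREAM/MuvB genes and 4 of 17 genes of the anaphase-promoting complex. Cep55, the midbody scaffold gene, had the smallest adjusted p (-2.71 ± 0.27, limma adjusted p = 8.1e-05). Of 35 DNA replication genes, 24 fell in mCG-PR and 4 in WT. Of 12 quiescence and CDK inhibitor genes, 3 fell in mCG-PR and 0 were called in WT.

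In KLS cells the genes with and without the promoter motif TTTGAA had close medians. With both ages pooled, the 19 measured genes whose promoter held TTTGAA had a median difference of 0.57 and the 8 measured genes without it of 0.60. From KLS to SLAM the medians were -0.69 with the motif and -1.20 without in WT, and -2.03 and -2.84 in mCG-PR. These are descriptions of 27 genes, with no test. Espl1 and Top2a, both shown above with TTTGAA and CCAAT, had differences of -0.32 and -3.44 in the last of these comparisons.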

How the data were processed

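Total RNA was amplified, biotin-labelled and hybridised to exon arrays, per the labels' protocols. The deposited intensity values (229581 probe sets) were made by the authors with RMA, per the submitters' processing notes, which also name the mm9 build. No version or setting of RMA is given in the sources used here. Values were on a linear scale, so log2 was taken and no scaling was added.

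A gene's value was the median over its probe sets, at least 3, each listed with 1 gene. Genes above the 30th percentile of mean level (log2 6.0) entered the test, which was two-sided and used limma 3.58.1 (R 4.3.3) on all 13 arrays in 1 fit, with Benjamini-Hochberg adjustment over 10575 genes and 0.05 as threshold. Pooled ages were fitted as 1 group. SLAM comparisons used array weights estimated by sorted population. Values after ± are limma standard errors unless marked SD, and p-values measure the spread between mice within the groups of the fit. Comparisons within KLS gave all 13 arrays equal weight. Their standard errors and p-values thus also hold the wider spread among SLAM arrays. Adjusted p-values throughout come from limma. The fit was tested on simulated data.

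The members and lists were chosen with earlier results of these data known. A value for every array is given for the gene with the smallest p in each role in mCG-PR against WT KLS, and pathway genes are named from the 3 with the smallest p in each list. RefSeq promoters (GRCm38.p6) were searched by letters only. Alternatives were no filter or the 50th percentile, mean of probe sets, quantile normalisation, median subtraction, log2 of the value plus 16, the replicate number as a block, the compared groups alone, other weights, other WT KLS controls and each array left out. Same-numbered arrays did not deviate together, so numbers were not taken to pair mice.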

Additional observations from a re-analysis of the deposited data

Results flagged for a closer look

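In 70 groups of 4 or 5 arrays tested for a single array far from the others, 2 were found, where chance would give about 1 in 20 groups, or 3.5. Foxm1 stood at 6.10 on WT KLS replicate 2, while the other WT KLS arrays lay between 6.82 and 6.85. Kif23 stood at 9.13 on replicate 2 of the 6-week mCG-PR KLS mice, while the other mCG-PR KLS arrays lay between 8.77 and 8.87. The same arrays were the lowest and the highest of the 9 KLS arrays for 27 and 18 of the 34 genes.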

How the results depend on the processing

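No median difference of the 34 genes in a comparison with WT KLS, or between SLAM and KLS, changed sign under any alternative run. The median of mCG-PR KLS of 13 against 6 weeks did, from -0.17 to 0.05 with single arrays left out, 0.09 with quantile normalisation and 0.06 with the block. In KLS of both ages the median ran from 0.43 without WT KLS replicate 2 to 0.73 without replicate 3, and the count of calls was 0 to 1, the 1 being Bub1b without WT KLS replicate 3. With single arrays left out the median was 0.42 to 0.75 at 6 weeks and 0.37 to 0.67 at 13 weeks. Against the 12-week WT KLS controls alone it was 0.33 for both ages, 0.32 at 6 weeks and 0.27 at 13 weeks. Against the 13-week controls alone, an alternative chosen after seeing the data, it was 0.81, 0.82 and 0.77. Over all genes the count for both ages was 0, and 9 with the compared groups alone, 12 with weights by population and 29 with weights per array.

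For WT SLAM against WT KLS the count of 1 became 2 with the mean of probe sets, 13 without weights and 4 with the 12-week WT KLS controls alone, and 0 to 7 with single arrays left out, when the median was -1.05 to -0.55. Over all genes the count of 330 ran from 119 with quantile normalisation to 1229 without weights, and was 94 without WT SLAM replicate 1 and 98 without replicate 2. For mCG-PR SLAM against mCG-PR KLS the median of -2.17 became -1.87 with quantile normalisation and -1.89 with log2 of the value plus 16, and -2.32 to -1.97 with single arrays left out. The count of 29 then ran from 14 to 30, and without mCG-PR SLAM replicate 2 it was 19. Over all genes 1387 calls became 512 with quantile normalisation, 2394 without weights, and 397 and 508 without mCG-PR SLAM replicates 1 and 2. For mCG-PR against WT SLAM the count of 0 became 3 without weights, and the median was -0.80 to -0.28 with single arrays left out. Without weights the count over all genes went from 3 to 270 there and from 2 to 106 for the interaction. For the interaction the count of 0 became 3 without weights, and its median of -1.11 became -0.79 with the 12-week WT KLS controls alone and -1.34 to -0.79 with single arrays left out. The cause of these shifts was not tested.

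The replicate numbers were tried as a block although 21 same-numbered pairs correlated at -0.07 to 0.08 and none above 0.1. With the block the median for mCG-PR SLAM against mCG-PR KLS was -1.94 with 24 calls, and for mCG-PR KLS of both ages 0.65 with 0 calls. Signal over background was not assessed, which limits the differences that reach low SLAM values.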
